A study of Sus scrofa with 30 samples.

Results

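Chromatin at 33 pig genes for developmental transcription factors was described, namely 9 SOX, 8 TBX, 5 FOX, 3 ZIC and 8 basic helix-loop-helix (bHLH) genes. They were taken by name from 19484 protein-coding genes on chromosomes 1 to 18 and X, and all 33 were found in the annotation. The study mapped 2 histone H3 marks, H3K4me3 (trimethylated lysine 4) and H3K27me3 (trimethylated lysine 27), with ULI-NChIP-seq, a native chromatin immunoprecipitation for very few cells. Knockdown embryos were 4-cell embryos whose zygotes had been injected with small interfering RNA (siRNA) against KDM5B and KDM5C (siKDM5BC), which encode enzymes that remove H3K4me3. The other libraries came from untreated oocytes and embryos, and all embryos, knockdown included, were made by fertilisation in vitro. Immature oocytes were taken at the germinal vesicle stage (GV) and mature ones at metaphase II (MII). H3K4me3 was profiled in siKDM5BC 4-cell embryos and in both kinds of oocyte, 1-cell, 2-cell, 4-cell and 8-cell embryos, morulae and blastocysts. H3K27me3 was profiled in MII oocytes, in 2-cell, 4-cell and 8-cell embryos, and in morulae and blastocysts. Each of the 15 groups had 2 libraries, 30 in all. The siKDM5BC libraries were set against untreated 4-cell embryos, as no group is labelled as a control siRNA, and the effect of injection itself cannot be told apart from that of the knockdown. The RNA of KDM5B and KDM5C was not analysed here. The labels do not state strain, age, number of pooled oocytes or embryos, or whether replicates were separate collections. The p-values therefore measure only the spread between these libraries, which may be technical.

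H3K4me3 is laid down at promoters that are active or kept ready for activity. H3K27me3 is laid down by Polycomb repressive complex 2 and marks silenced developmental genes. In embryonic cells many genes for lineage regulators carry both marks at once, a state called bivalent. The 5 families are known mainly from mouse work. SOX factors bind DNA through an HMG box and act in neural crest, cartilage, neurons and vessels, and T-box (TBX) factors pattern the heart, limbs and pharynx. Forkhead (FOX) factors of the C, E and F classes act in mesoderm, vessels, gut mesenchyme and thyroid. ZIC zinc-finger factors act in the neural plate and cerebellum, and the bHLH factors listed here commit cells to neurons, glia, heart, limb mesenchyme or muscle. The oocyte and the cleaving embryo precede all of these tissues.

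Each value below is a peak-covered length in base pairs (bp). For a gene and a library it is the length covered by the authors' broad peaks within 5 kb on either side of a gene end, taken at the end with more, so 10001 bp is a fully covered window. Peak lists held 37481 to 119878 peaks for H3K4me3 and 2358 to 80700 for H3K27me3. Read totals are not in these lists, so depth is unknown. The lowest fold enrichment in a list ran from 2.60 to 3.31 for H3K4me3 and from 2.75 to 3.90 for H3K27me3. It differs between the groups compared and is given beside each comparison in which members were called. The H3K27me3 8-cell lists differed most within a group by ratio, with 8560 and 39135 peaks. Marker genes cannot check the labels here, since peaks describe chromatin and not RNA. All 5 trophectoderm markers had H3K4me3 in every H3K4me3 library, and 2 to 4 of the 6 matched cumulus and granulosa genes did.

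The members are mostly small genes standing alone. Of the 33, 22 are under 10 kb long, and 23 have no other coding gene's end inside their windows. ZIC1 and ZIC4 lie 44 bp apart on chromosome 13 and share a window, so their values are not independent. FOXC2 and FOXF1 on chromosome 6 lie 24306 bp apart, and the end of MTHFSD falls within a window of each. Ends of other coding genes also fall within windows of SOX10 (POLR2F), SOX18 (TCEA2), TBX2 (C12H17orf82 and LOC110256170) and TBX4 (LOC106505461). The same holds for FOXC1 (LOC110261695) and HAND2 (LOC100517194). Peaks in these windows may belong to either gene. TBX2 and TBX4 are 48340 bp apart on chromosome 12, FOXF2 and FOXC1 117306 bp apart on chromosome 7, and TBX3 and TBX5 175437 bp apart on chromosome 14. Coordinates are those of Sscrofa11.1 (susScr11).

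**Figure D1:**
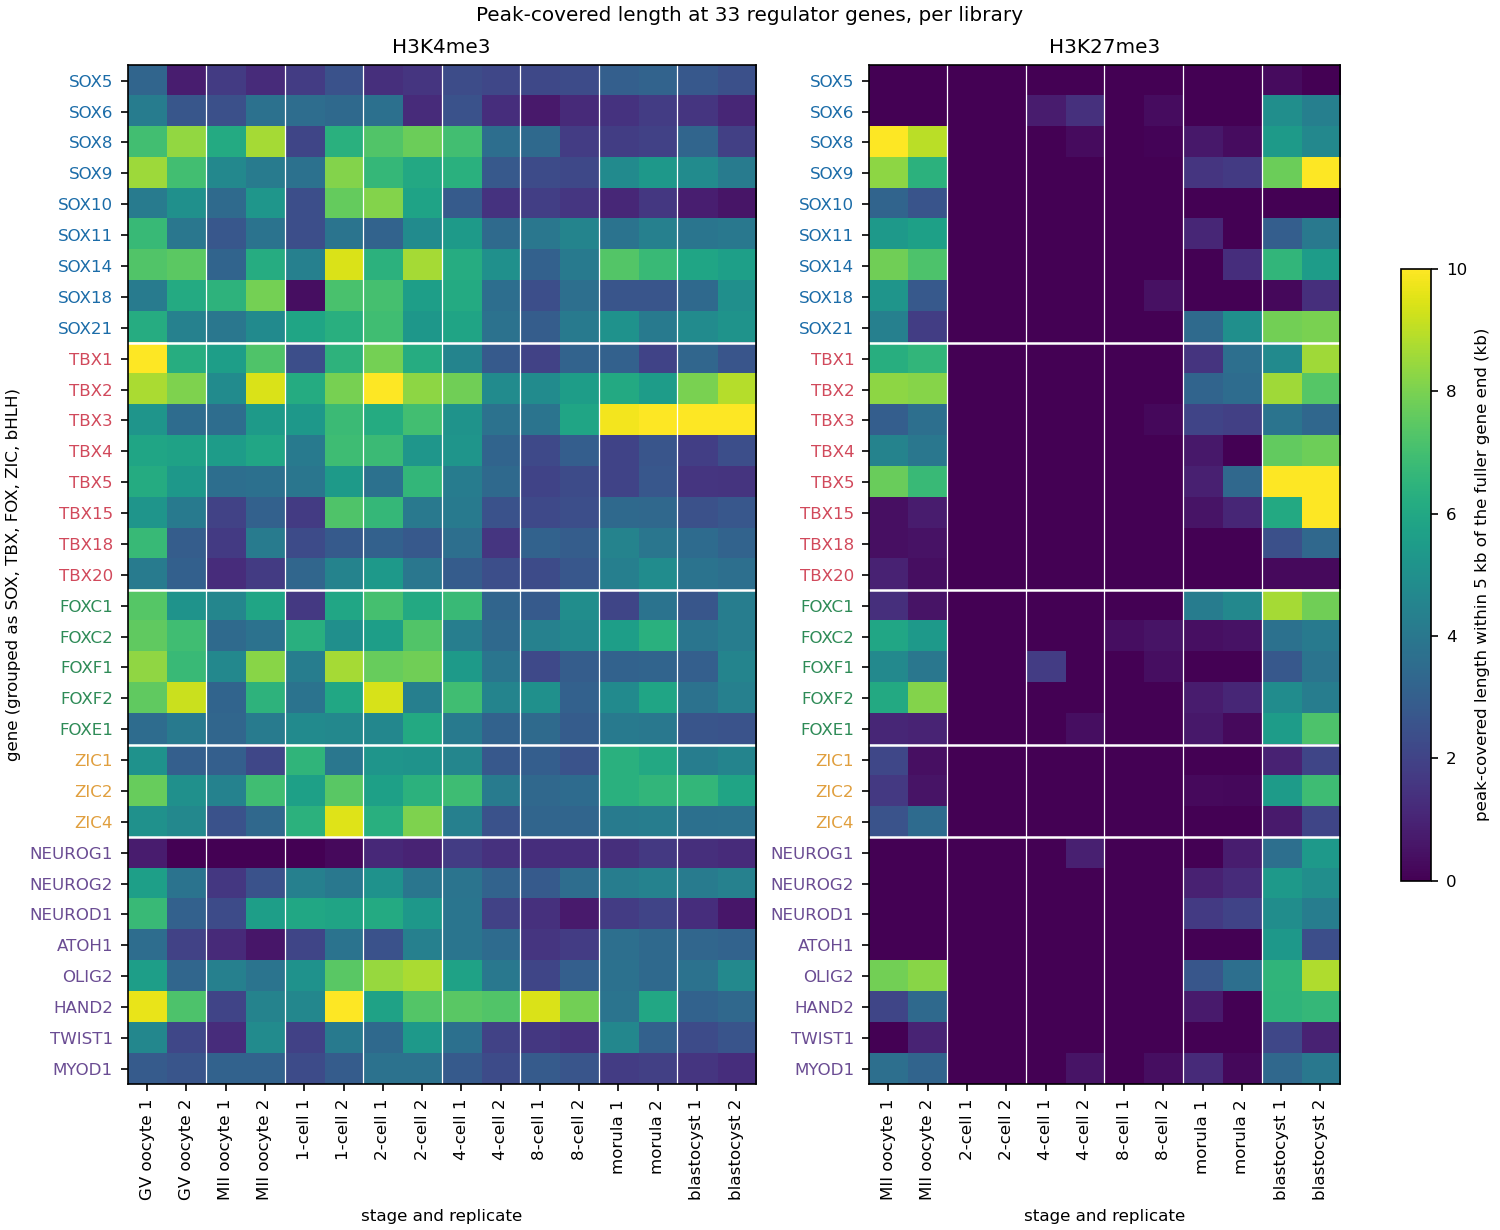
Each row is a gene and each column a library of the untreated stages, with H3K4me3 on the left and H3K27me3 on the right. Colour gives the peak-covered length in kb at the fuller gene end, from 0 to 10. The H3K27me3 panel is at 0 for all 33 genes in the 2-cell libraries and fills again in morula and blastocyst. Of all coding genes 0.472% had H3K27me3 in both 2-cell libraries. H3K4me3 was found at all 33 genes in both libraries from the 2-cell stage on, against 75.7% to 82.8% of all coding genes.

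In MII oocytes H3K27me3 was already found at most of these genes. In 2-cell embryos it was found at 0 of 33, where only 0.472% of all coding genes had it in both libraries. Of the members, 26 had a peak in both MII libraries and 6 in neither, against 18.3% of all coding genes with a peak in both. The median over members of the MII mean was 4325.5 bp for FOX, 3991.5 bp for SOX, 3770 bp for TBX, 1280 bp for ZIC and 246.5 bp for bHLH genes. Among the bHLH genes the 4 proneural ones, NEUROG1, NEUROG2, NEUROD1 and ATOH1, which turn precursors into neurons, had 0 bp in both MII libraries.

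The comparison of 2-cell embryos with MII oocytes shows which of these oocyte marks were still found after fertilisation. SOX8, a SoxE gene of gonad and neural crest (chromosome 3, 40825151 to 40830085), had 0 and 0 bp in 2-cell libraries, against 10001 and 8977 bp in MII libraries. TBX2, a repressor in heart and limb, had 0 and 0 bp in 2-cell libraries, against 8317 and 8170 bp in MII libraries. OLIG2, the motor neuron and oligodendrocyte factor, had 0 and 0 bp in 2-cell libraries, against 7870 and 8238 bp in MII libraries. For these 3 genes both 2-cell libraries lay below both MII libraries by nearly the whole window or most of it. SOX14, a repressor in interneurons, had 0 and 0 bp in 2-cell libraries, against 7841 and 7213 bp in MII libraries.

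In a limma fit over all 12 H3K27me3 libraries, with Benjamini-Hochberg (BH) adjustment over 10518 genes and calls at an adjusted p of 0.05 or less, 19 of 32 tested members fell and 0 rose, against 15.6% of all genes tested that fell and 0% that rose. SOX5, a partner of SOX9 in cartilage, was not tested, as it had a peak in 1 H3K27me3 library only (275 bp, blastocyst replicate 1). By family, 7 of 8 tested SOX genes fell, 5 of 8 TBX, 3 of 5 FOX, 1 of 3 ZIC and 3 of 8 bHLH. SOX10, among the 7 SOX genes, had H3K27me3 peaks in MII libraries only, so it was tested through that group and could only fall. The median difference was −3055 bp over members and −115 bp over all genes tested. SOX8 differed by −9.49 kb (SE 0.950, limma adjusted p = 1.77e-09) and OLIG2 by −8.05 kb (SE 1.10, limma adjusted p = 5.40e-07). Both 2-cell libraries lay below both MII libraries at 26 members, against 33% of all genes. TBX15, TBX18, TBX20, FOXC1, FOXE1, ZIC1 and ZIC2 were among these 26, with MII means of 450 to 1280 bp, and did not pass.

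The 2-cell lists were the shortest of all, with 3168 and 2358 peaks, and their lowest fold was 3.80 and 3.90, against 3.03 and 3.08 in the MII lists. With only peaks of fold 4 or more, a minimum above every list's floor that was chosen after the data were seen, 0 of 33 members had a peak in both 2-cell libraries and 14 in both MII libraries, against 0.205% and 4.79% of all coding genes. Of the 22 members still tested 4 fell, as did 10.1% of all genes tested. No member was called when only peaks with a −log10 q of 3 or more were used, or when libraries were scaled to equal mean coverage, and neither was any other gene. Mean coverage was 18.1 and 10.6 bp per gene in the 2-cell and 578 and 501 bp in the MII lists.

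From the 2-cell to the 8-cell stage almost none of these genes had H3K27me3 in both libraries. In single 4-cell libraries 2 and 5 of 33 members had a peak, against 14.8% and 20.6% of all coding genes. In single 8-cell libraries 2 and 7 did, against 4.62% and 18.7%. In 4-cell against 2-cell embryos 0 members were called by limma in either direction and 0 had an unadjusted p under 0.05, with 0.162% of all genes called higher and 0% lower. Of all 10518 genes tested 520 had such a p. All members were at 0 bp in both 2-cell libraries, so none could be called lower there. In 8-cell against 4-cell embryos there were again 0 calls and 0 members with an unadjusted p under 0.05, with 0% of all genes called higher and 0.019% lower. Here 376 of all 10518 genes had such a p. SOX6, a cartilage and muscle factor, was the only member with a peak in both 4-cell libraries (744 and 1377 bp), against 9.97% of all genes. FOXC2, a factor of lymphatic vessels, was the only one with a peak in both 8-cell libraries (384 and 535 bp), against 3.72% of all genes.

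In morulae H3K27me3 was found again at 17 of 33 members in both libraries, against 7.23% of all genes. Both morula libraries lay above both 8-cell libraries at 15 members, against 9.81% of all genes. FOXC1, a factor of eye, vessel and skull development (chromosome 7, 837088 to 840593), had 4211 and 4668 bp in morula libraries, against 0 and 0 bp in 8-cell libraries. SOX21, a neural repressor, had 3449 and 4986 bp in morula libraries, against 0 and 0 bp in 8-cell libraries, and did not pass. FOXC1 was the only member called in this comparison (4.44 kb higher, SE 0.940, limma adjusted p = 0.0143), with 0.371% of all genes called higher and 0.0666% lower. Morula lists held 13997 and 16979 peaks from a fold of 3.42 and 3.39. The 8-cell lists held 8560 and 39135 from 3.84 and 3.19. TBX2 had 3237 and 3528 bp in morulae and TBX1, a pharyngeal arch factor, 1506 and 3667 bp. SOX6, SOX10, TBX18, TBX20, FOXF1, ZIC1, ZIC4, ATOH1 and TWIST1 had no peak in either morula library, nor did SOX5 and SOX18.

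Blastocysts had H3K27me3 at 31 of 33 members in both libraries, against 32.5% of all genes. TBX5, the forelimb and heart factor (chromosome 14, 37772205 to 37826015), had 10001 and 10001 bp in blastocyst libraries, against 867 and 3365 bp in morula libraries. TBX4, its hindlimb counterpart, had 7610 and 7796 bp in blastocyst libraries, against 625 and 0 bp in morula libraries. SOX9, the factor of cartilage and testis, had 7743 and 10001 bp in blastocyst libraries, against 1544 and 1708 bp in morula libraries. In these genes the blastocyst and morula libraries did not overlap, and one end of TBX5 was fully covered in blastocysts. TBX15, a factor of limb and skull skeleton, had 6064 and 10001 bp in blastocyst libraries, against 527 and 1063 bp in morula libraries.

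Against morulae, 25 of 32 tested members rose and 0 fell in blastocysts by limma with BH adjustment over all genes, where 21.4% of all genes rose and 0% fell. By family the rises were 6 of 8 SOX, 6 of 8 TBX, 5 of 5 FOX, 1 of 3 ZIC and 7 of 8 bHLH genes. ATOH1, among the 7 bHLH genes, had H3K27me3 peaks in blastocyst libraries only, so it was tested through that group and could only rise. None of the 11 members without a morula peak, untested SOX5 among them, could fall. Both blastocyst libraries lay above both morula libraries at 31 members, against 57% of all genes. The median difference was 3838 bp over members and 616.25 bp over all genes tested. The differences of TBX5 (7.88 kb, SE 1.13, limma adjusted p = 5.33e-06) and TBX4 (7.39 kb, SE 0.905, limma adjusted p = 6.70e-07) were the largest. The 7 tested members that did not pass were SOX10, SOX18, TBX3, TBX20, ZIC1, ZIC4 and TWIST1. The blastocyst lists held more peaks at a lower fold floor, with 66888 and 80700 peaks from a fold of 2.86 and 2.75, against 13997 and 16979 peaks from 3.42 and 3.39 in morulae. With only peaks of fold 4 or more, 15 of 33 members had a peak in both blastocyst libraries, against 4 in both morula libraries, where 5.39% and 1.95% of all coding genes did. Of the 22 members still tested 4 rose, as did 4.43% of all genes tested. With libraries scaled to equal mean coverage 0 members and 0% of all genes were called, and TBX5 and SOX9 then lay lower in blastocysts.

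Set against MII oocytes, blastocysts did not have the same H3K27me3 at these genes. The blastocyst libraries are those of the comparison with morulae. The blastocyst lists held 66888 and 80700 peaks from a fold of 2.86 and 2.75, and the MII lists 50291 and 53753 from 3.03 and 3.08. Of 32 tested members 13 rose and 4 fell by limma, where 17.9% of all genes rose and 9.01% fell. The median difference was 667 bp over members and 286.25 bp over all genes tested.

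The bHLH genes made up 5 of the 13 rises and 0 of the 4 falls. Of 29 other bHLH genes tested, described below, 6 rose and 3 fell. NEUROG2 had 5352 and 4930 bp in blastocyst libraries, against 0 and 0 bp in MII libraries (5.14 kb higher, SE 0.794, limma adjusted p = 5.99e-06). NEUROD1 had 4898 and 4255 bp, NEUROG1 3640 and 5357 bp, and ATOH1 5351 and 2392 bp in blastocyst libraries, each against 0 and 0 bp in MII libraries. HAND2, a heart and limb factor, had 6521 and 6664 bp in blastocyst libraries, against 2092 and 3431 bp in MII libraries. Thus every called bHLH member lay higher in both blastocyst libraries, and 4 of the 5 had no MII peak. These 4 were at 0 bp in both MII libraries and could not be called lower. ATOH1 had H3K27me3 peaks in the blastocyst libraries only, so it was tested through that group and could only be called higher. The other 3 did not pass. OLIG2 had 6537 and 8801 bp in blastocyst and 7870 and 8238 bp in MII libraries. MYOD1, the skeletal muscle determinant, had 3374 and 4019 bp in blastocyst and 3666 and 3212 bp in MII libraries. TWIST1, a mesenchyme factor, had 2114 and 971 bp in blastocyst and 0 and 986 bp in MII libraries. Libraries of the stages overlapped in OLIG2, MYOD1 and TWIST1.

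SOX genes moved in both directions. SOX8 had 5439 and 4665 bp in blastocyst libraries, against 10001 and 8977 bp in MII libraries (−4.44 kb, SE 0.950, limma adjusted p = 0.000448). SOX18, a factor of vessel endothelium, had 220 and 1365 bp in blastocyst libraries, against 5203 and 2780 bp in MII libraries (−3.20 kb, SE 0.819, limma adjusted p = 0.00296). SOX10, the factor of neural crest glia and pigment cells (chromosome 5, 9890439 to 9901746), had 0 and 0 bp in blastocyst libraries, against 3236 and 2585 bp in MII libraries (−2.91 kb, SE 0.701, limma adjusted p = 0.00178). These 3 fell, with no overlap of libraries, and SOX10 was the only tested member without any blastocyst peak. SOX10 had H3K27me3 peaks in the MII libraries only, and its own spread came from those libraries alone. It was thus tested through that group and could only be called lower. In the other direction, SOX21 had 7857 and 7998 bp in blastocyst libraries, against 4350 and 1823 bp in MII libraries, and SOX6 had 4928 and 4321 bp in blastocyst libraries, against no peak in MII libraries. Both rose (limma adjusted p = 0.000450 for SOX21 and 2.12e-05 for SOX6). Without an MII peak, SOX6 could not be called lower.

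Among TBX genes 3 rose and 0 fell. TBX15 had 6064 and 10001 bp in blastocyst libraries, against 414 and 777 bp in MII libraries (7.44 kb, SE 0.977, limma adjusted p = 5.73e-07). TBX4 had 7610 and 7796 bp in blastocyst libraries, against 4481 and 3982 bp in MII libraries. TBX18, a factor of the epicardium, had 2433 and 3383 bp in blastocyst libraries, against 413 and 487 bp in MII libraries. All 3 lay higher in both blastocyst libraries. TBX20, a cardiac factor, stayed near the lower end with 239 and 243 bp in blastocyst libraries, against 961 and 355 bp in MII libraries, and did not pass.

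Of the FOX genes, neighbours on chromosome 7 moved in opposite directions. FOXC1 had 8660 and 7828 bp in blastocyst libraries, against 1343 and 516 bp in MII libraries (7.31 kb, SE 0.940, limma adjusted p = 2.89e-07). FOXF2, a factor of gut and palate mesenchyme 117306 bp away, had 4850 and 4253 bp in blastocyst libraries, against 6067 and 8134 bp in MII libraries (−2.55 kb, SE 0.944, limma adjusted p = 0.0419). The difference between the changes of these 2 genes was not tested. FOXE1, the thyroid factor, had 5536 and 7196 bp in blastocyst libraries, against 1060 and 1014 bp in MII libraries, and rose (limma adjusted p = 5.50e-06). FOXF1, a factor of lung and gut mesenchyme, had the lowest blastocyst mean of the family, with 2764 and 3863 bp in blastocyst libraries, against 4699 and 3952 bp in MII libraries, and did not pass.

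Of the ZIC genes, ZIC2, a forebrain factor, had 5500 and 6896 bp in blastocyst libraries, against 1642 and 535 bp in MII libraries, and rose (limma adjusted p = 1.29e-05). ZIC4 had 741 and 2102 bp in blastocyst libraries, against 2545 and 3502 bp in MII libraries, and did not pass. With the windows narrowed to 2.5 kb 2 members fell in place of 4, where 8.47% of all genes tested fell. Fewer members also fell without either MII library, and a smaller share of all genes did. With only peaks of fold 4 or more 6 of 22 tested members rose and 1 fell, where 12% of all genes tested rose and 10.1% fell. With libraries scaled to equal mean coverage 0 members and 0% of all genes were called.

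**Figure D2:**
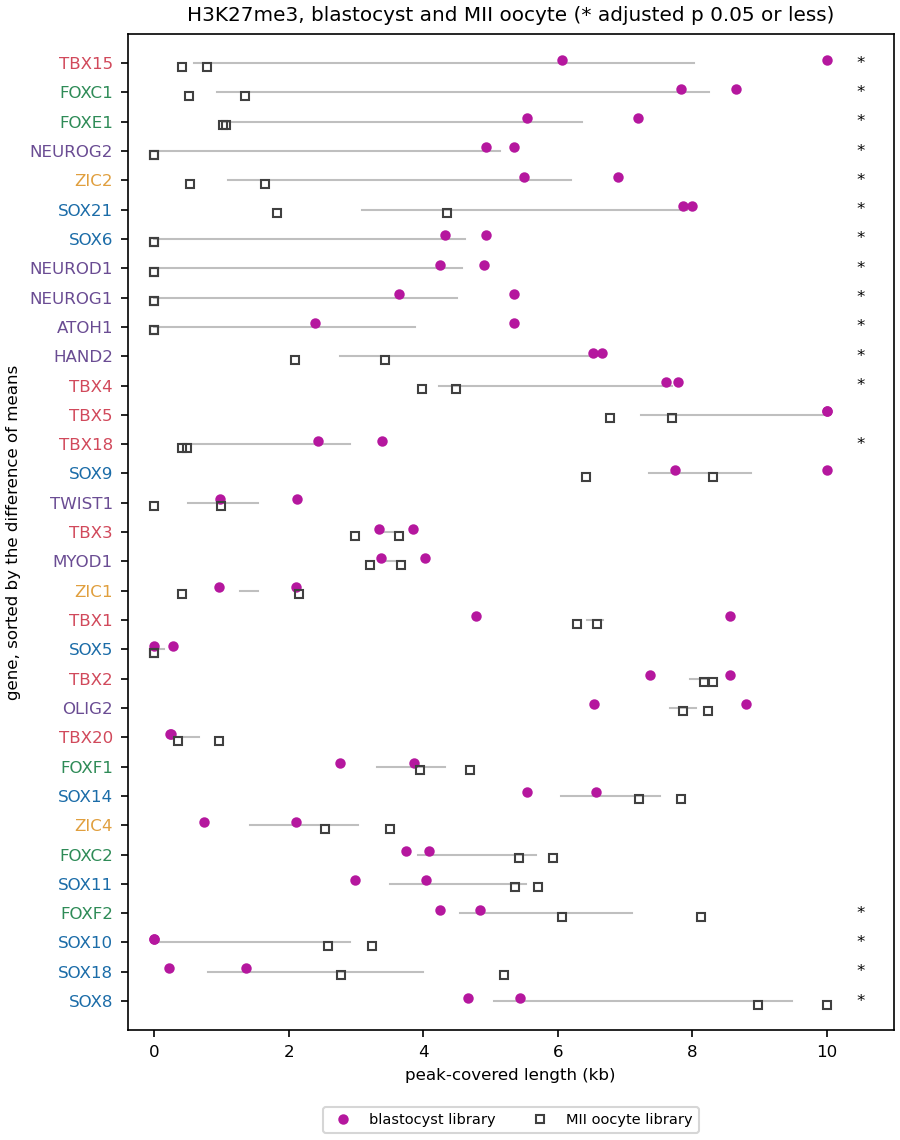
H3K27me3 peak-covered length in kb of each gene, in blastocyst libraries (filled circles) and MII oocyte libraries (open squares), sorted by the difference of their means, which a grey line joins. An asterisk marks an adjusted p of 0.05 or less. TBX15 and FOXC1 stand at the top, with 6064 bp or more in blastocyst and 1343 bp or less in MII oocyte libraries, and SOX8 stands at the bottom.

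H3K4me3 was found at nearly all members throughout. At least 32 of the 33 had a peak in both libraries of every group, where 72.6% to 84.4% of all coding genes did. NEUROG1 was the exception in GV oocytes (761 and 0 bp), MII oocytes (0 and 0 bp) and 1-cell embryos (0 and 253 bp). Over stages, the median over members of the group mean was 4934 bp in GV oocytes, 3719 bp in MII oocytes, 4727 bp at the 1-cell, 6055 bp at the 2-cell, 3810.5 bp at the 4-cell and 2765 bp at the 8-cell stage, 3872.5 bp in morulae and 3453.5 bp in blastocysts. Over all coding genes the same values ran from 1091.75 bp in MII oocytes to 2367.25 bp in morulae. In the peaks as called, the members' median thus lay above that of all genes at every stage, and by least in blastocysts, where all genes had 2299 bp. In GV oocytes this order turned with only peaks of fold 4 or more (475 bp over members, 794 bp over all genes) or of −log10 q 3 or more (0 and 786.25 bp). In single libraries the members' median was lowest in 8-cell replicate 1 (2832 bp), while that of all genes was lowest in MII replicate 1 (822 bp).

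The families differed in level, and not all followed this course over the untreated stages. The TBX and bHLH medians did. The SOX median was lower at the 1-cell stage (4235 bp) than in MII oocytes, and higher in blastocysts than in morulae (3097.5 bp). The FOX median was highest in GV oocytes (7248 bp) and the ZIC median at the 1-cell stage (6549.5 bp). In MII oocytes the FOX median was 4856 bp, SOX 4374.5 bp, TBX 4076.5 bp, bHLH 3094.25 bp and ZIC 2941 bp. In 2-cell embryos it was 6567 bp for FOX, 6332.5 bp for SOX, 6055 bp for ZIC, 5682.75 bp for TBX and 4449.75 bp for bHLH genes. In blastocysts it was 4371.5 bp for ZIC, 3944.5 bp for SOX, 3783.5 bp for FOX, 3160.5 bp for TBX and 2853.75 bp for bHLH genes. The bHLH genes thus had the lowest or next to lowest family median at these 3 stages. With 3 to 9 genes in a family and 2 libraries in a group, these orders are descriptions.

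**Figure D3:**
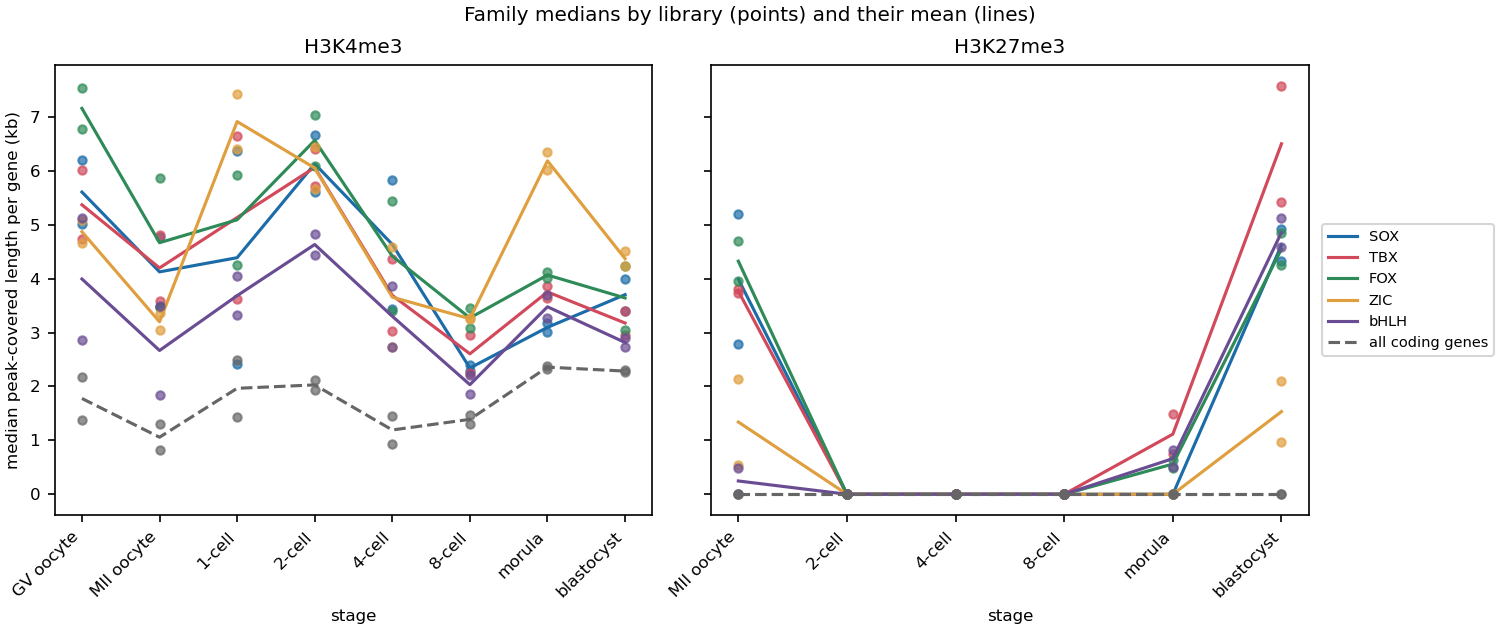
Median peak-covered length per gene in kb for each family and for all coding genes (dashed), by stage, with H3K4me3 on the left and H3K27me3 on the right. Points are libraries and lines join their means. The family medians of H3K27me3 are 0 from the 2-cell to the 8-cell stage and highest for TBX in blastocysts.

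These levels depend strongly on how weak a peak is counted. With only peaks of fold 4 or more, members with H3K4me3 in both libraries numbered 4 in GV oocytes, 1 in MII oocytes, 0 at the 1-cell and 0 at the 2-cell stage, 33 at the 4-cell and 24 at the 8-cell stage, and 32 each in morulae and blastocysts. Over all coding genes the same share was 32.3% in GV oocytes, 1.05% in MII oocytes, 0.195% at the 1-cell, 1.16% at the 2-cell, 54.5% at the 4-cell, 61.2% at the 8-cell stage, 74.6% in morulae and 76.0% in blastocysts. Before the 4-cell stage H3K4me3 at nearly all of these genes was thus made up of peaks under fold 4 in at least 1 library, and directions across that stage are those of the peaks as called.

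In the peaks as called, H3K4me3 was shorter in 4-cell than in 2-cell embryos at 3 members. ZIC4 had 4344 and 2507 bp in 4-cell libraries, against 6303 and 8071 bp in 2-cell libraries, and fell (limma adjusted p = 0.0463). OLIG2 had 5762 and 4015 bp in 4-cell libraries, against 8452 and 8749 bp in 2-cell libraries, and fell (limma adjusted p = 0.0403). SOX10 fell too, with 2856 and 1460 bp in 4-cell libraries, against 8134 and 5802 bp in 2-cell libraries (−4.81 kb, SE 1.32, limma adjusted p = 0.0328). Both 4-cell libraries lay below both 2-cell libraries at these 3 and at 17 members in all, against 48.5% of all genes. Of 33 members 3 fell and 0 rose, close to the 9.29% of all genes that fell, with 0.121% that rose. The median difference was −1562.5 bp over members and −732.75 bp over all genes. The 4-cell lists held 58229 and 37481 peaks from a fold of 3.11 and 3.31. The 2-cell lists held 119878 and 111269 from 2.90 and 3.02. Leaving out any 1 library, fewer members fell, and a smaller share of all genes did. All 3 genes lay higher in 4-cell embryos when only peaks of fold 4 or more were used (by 1594 bp for SOX10, 2473 bp for ZIC4 and 4888.5 bp for OLIG2). With fold 4 or more 4 members rose and 0 fell, where 0.932% of all genes tested rose and 0% fell. Scaled to equal mean coverage, 3 members rose and 0 fell, where 2.4% of all genes rose and 2.84% fell.

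Around these stages few members passed. In MII against GV oocytes 0 members were called by limma and 8 had an unadjusted p under 0.05, where 0.011% of all genes rose and 0.0768% fell. Of all 18228 genes tested 2556 had such a p. In 1-cell embryos against MII oocytes only ZIC4 was called, with 6407 and 9517 bp in 1-cell libraries, against 2521 and 3361 bp in MII libraries (5.02 kb higher, SE 1.13, limma adjusted p = 0.0130), where 11.4% of all genes rose and 0.828% fell. The 1-cell lists held 61610 and 92551 peaks from a fold of 2.77 and 2.88. The MII lists held 76377 and 101391 from 3.07 and 2.97. In 2-cell against 1-cell embryos 0 members were called and 3 had an unadjusted p under 0.05, where 0.00549% of all genes were called in each direction. Such a p was found at 1956 of all 18228 genes. In 8-cell against 4-cell embryos 0 members were called and 2 had an unadjusted p under 0.05, where 1.38% of all genes rose and 0.0165% fell. Here 1630 of all 18228 genes had such a p. The median difference there was −1082 bp over members and 121 bp over all genes. HAND2 had the longest H3K4me3 of the members at the 8-cell stage, with 9425 and 7890 bp in 8-cell libraries, against 7449 and 7269 bp in 4-cell libraries, and did not pass.

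In morulae against 8-cell embryos TBX3 and ZIC1 rose, where 16.3% of all genes rose and 1.08% fell. TBX3, a factor of limb and mammary gland that is also known in pluripotent cells of the mouse (chromosome 14, 37582704 to 37596767), had 9833 and 10001 bp in morula libraries, against 3838 and 5868 bp in 8-cell libraries (5.06 kb higher, SE 1.17, limma adjusted p = 0.00749). ZIC1 had 6366 and 6017 bp in morula libraries, against 3001 and 2559 bp in 8-cell libraries (3.41 kb higher, SE 0.999, limma adjusted p = 0.0264). Morula lists held 76288 and 88203 peaks from a fold of 2.80 and 2.60. The 8-cell lists held 69598 and 81946 from 2.90 and 2.86. In blastocysts against morulae 0 members were called and 0 had an unadjusted p under 0.05, where 0.867% of all genes rose and 0.51% fell. Such a p was found at 1744 of all 18228 genes.

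Between MII oocyte and blastocyst few members changed in H3K4me3, in both directions. Of 33 members 5 rose and 4 fell by limma, where 36% of all genes rose and 3.7% fell, and the median difference was 73.5 bp over members and 1134.5 bp over all genes. Blastocyst lists held 73609 and 72725 peaks from a fold of 2.88 and 2.89. The MII lists held 76377 and 101391 from 3.07 and 2.97. TBX3 had the largest rise, with 10001 and 10001 bp in blastocyst libraries, against 3567 and 5432 bp in MII libraries (5.50 kb, SE 1.17, limma adjusted p = 0.00180). ATOH1, the hair cell and cerebellar granule cell factor, had 3302 and 3202 bp in blastocyst libraries, against 1198 and 611 bp in MII libraries. NEUROG2 had 4151 and 4413 bp in blastocyst libraries, against 1621 and 2537 bp in MII libraries. NEUROG1 rose as well, with 1367 and 1225 bp in blastocyst libraries, against no peak in MII libraries, so it could not be called lower. The remaining proneural gene, NEUROD1, lay lower in blastocysts, with 1314 and 586 bp in blastocyst libraries, against 2286 and 5624 bp in MII libraries. Its libraries did not overlap between the stages, and it did not pass (limma adjusted p = 0.0501). TBX20 was the fifth, with 3809 and 3671 bp in blastocyst and 1276 and 1756 bp in MII libraries.

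The 4 falls were SOX8, SOX10, TBX4 and MYOD1. SOX8 had 3246 and 1914 bp in blastocyst libraries, against 6114 and 8641 bp in MII libraries (−4.80 kb, SE 1.39, limma adjusted p = 0.0118). SOX10 had 841 and 565 bp in blastocyst libraries, against 3475 and 5241 bp in MII libraries (−3.65 kb, SE 1.32, limma adjusted p = 0.0360). TBX4 had 1836 and 2410 bp in blastocyst libraries, against 5538 and 5911 bp in MII libraries (−3.60 kb, SE 1.02, limma adjusted p = 0.0104). Each lay lower in both blastocyst libraries, as did MYOD1 with 1559 and 1305 bp in blastocyst and 3147 and 3148 bp in MII libraries (limma adjusted p = 0.0235). With only peaks of fold 4 or more these 4 lay higher in blastocysts and 21 members rose, where 69.4% of all genes tested rose. With libraries scaled to equal mean coverage 0 rose and 17 fell, where 16.6% of all genes rose and 14.2% fell. Leaving out any 1 library, fewer members rose, and a smaller share of all genes did. Without either blastocyst replicate or MII replicate 2 fewer members fell, again with a smaller share of all genes.

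TBX3 stood apart in the width of its peak. The widest H3K4me3 peak meeting its windows measured 22359 and 26439 bp in morula libraries and 23669 and 22524 bp in blastocyst libraries, against 5124 and 3177 bp in 4-cell and 3567 and 4596 bp in MII libraries. The next widest in any morula or blastocyst library was 8581 bp, at TBX2. In H3K27me3 TBX3 had 3849 and 3337 bp in blastocyst libraries and 2978 and 3639 bp in MII libraries. The rise of TBX3 kept its direction in blastocysts against MII oocytes with peaks of fold 4 or more (9670.5 bp, limma adjusted p = 0.000222) and when scaled to equal mean coverage (1058.3 bp, limma adjusted p = 0.457), where it no longer passed.

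The siKDM5BC embryos were compared with untreated embryos at the 4-cell stage. H3K4me3 was longer at most of them: 31 of 33 members had more in both siKDM5BC libraries than in both untreated 4-cell libraries, as did 75.1% of all genes tested. SOX10 had 9226 and 7624 bp in siKDM5BC libraries, against 2856 and 1460 bp in untreated 4-cell libraries (6.27 kb higher, SE 1.32, limma adjusted p = 0.00234). TBX1 had 9756 and 9629 bp in siKDM5BC libraries, against 4507 and 2819 bp in untreated libraries (6.03 kb, SE 1.39, limma adjusted p = 0.00404). TBX1 was close to a full window in both siKDM5BC libraries, and the groups overlapped in neither gene. ZIC4 had 10001 and 7815 bp in siKDM5BC libraries, against 4344 and 2507 bp in untreated libraries (5.48 kb, SE 1.13, limma adjusted p = 0.00211). SOX21 had 10001 and 10001 bp in siKDM5BC libraries, against 5828 and 3766 bp in untreated libraries (5.20 kb, SE 1.07, limma adjusted p = 0.00229).

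By limma 19 of 33 members rose and 0 fell, where 34.4% of all genes rose and 0.0165% fell. The median difference was 3645 bp over members and 1412.5 bp over all genes. Rises were counted at 7 of 8 TBX, 6 of 9 SOX, 2 of 3 ZIC, 2 of 5 FOX and 2 of 8 bHLH genes, and the median difference was 4022 bp for TBX, 3723 bp for SOX, 3645 bp for FOX, 3528 bp for ZIC and 1789 bp for bHLH genes. Other genes of these families, described below, stood in another order. There 25 of 39 bHLH, 22 of 37 FOX, 5 of 10 SOX, 1 of 2 ZIC and 2 of 8 TBX genes rose. No window can exceed its full length, and TBX2 reached 10001 and 10001 bp in siKDM5BC libraries, against 7832 and 4811 bp in untreated libraries, and did not pass (limma adjusted p = 0.0699). Members with a group mean of 5000 bp or more numbered 28 in siKDM5BC and 7 in untreated 4-cell embryos. Over all coding genes 22.3% in siKDM5BC and 1.87% in untreated 4-cell embryos had such a mean.

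The bHLH genes included both members whose libraries overlapped between the groups. NEUROG1 had 1706 and 1820 bp in siKDM5BC libraries, against 1795 and 1441 bp in untreated libraries, and ATOH1 had 4054 and 3861 bp in siKDM5BC libraries, against 3875 and 3506 bp in untreated libraries. NEUROG2 had 5746 and 4464 bp in siKDM5BC libraries, against 3854 and 3193 bp in untreated libraries. MYOD1 had 3365 and 3523 bp in siKDM5BC libraries, against 2836 and 2290 bp in untreated libraries. NEUROG2 and MYOD1 did not overlap between the groups and did not pass. NEUROD1 and OLIG2 were the 2 bHLH genes called: NEUROD1 had 7548 and 7342 bp in siKDM5BC libraries, against 3880 and 1982 bp in untreated libraries. OLIG2 had 8754 and 9748 bp in siKDM5BC libraries, against 5762 and 4015 bp in untreated libraries. The difference between families was not tested.

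SOX10, ZIC4 and OLIG2, the 3 members that fell in untreated 4-cell against 2-cell embryos, were among the 19. Both comparisons use the same untreated 4-cell libraries, so they are not independent. SOX10 had 9226 and 7624 bp in siKDM5BC 4-cell embryos, beside 8134 and 5802 bp in untreated 2-cell embryos. OLIG2 had 8754 and 9748 bp in siKDM5BC 4-cell embryos, beside 8452 and 8749 bp in untreated 2-cell embryos. The siKDM5BC lists had a lower fold floor, 2.70 and 2.86, against 3.11 and 3.31 in the untreated 4-cell lists, and held 91171 and 82683 peaks, against 58229 and 37481. They were also the only 2 lists with peaks on unplaced sequences (1087 and 1212). The part of these differences in the result was not tested. The members that rose numbered 13 with only peaks of fold 4 or more, 9 with fold 3.5 or more, 17 with a −log10 q of 3 or more and 9 with windows of 2.5 kb, and 0 fell under these settings. In the same order 11.2%, 15.8%, 14.8% and 23.6% of all genes tested rose. Mean coverage over all genes was 3314 and 3089 bp in siKDM5BC lists, against 1711 and 1149 bp in untreated 4-cell lists. With libraries scaled to equal mean coverage 0 members rose, 1 fell, and SOX21 lay lower in siKDM5BC embryos, where 1.9% of all genes rose and 1.2% fell. Without untreated 4-cell replicate 2 or either siKDM5BC replicate fewer members rose, and a smaller share of all genes did. Without untreated 4-cell replicate 1 slightly more members rose, though a smaller share of all genes did.

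**Figure D4:**
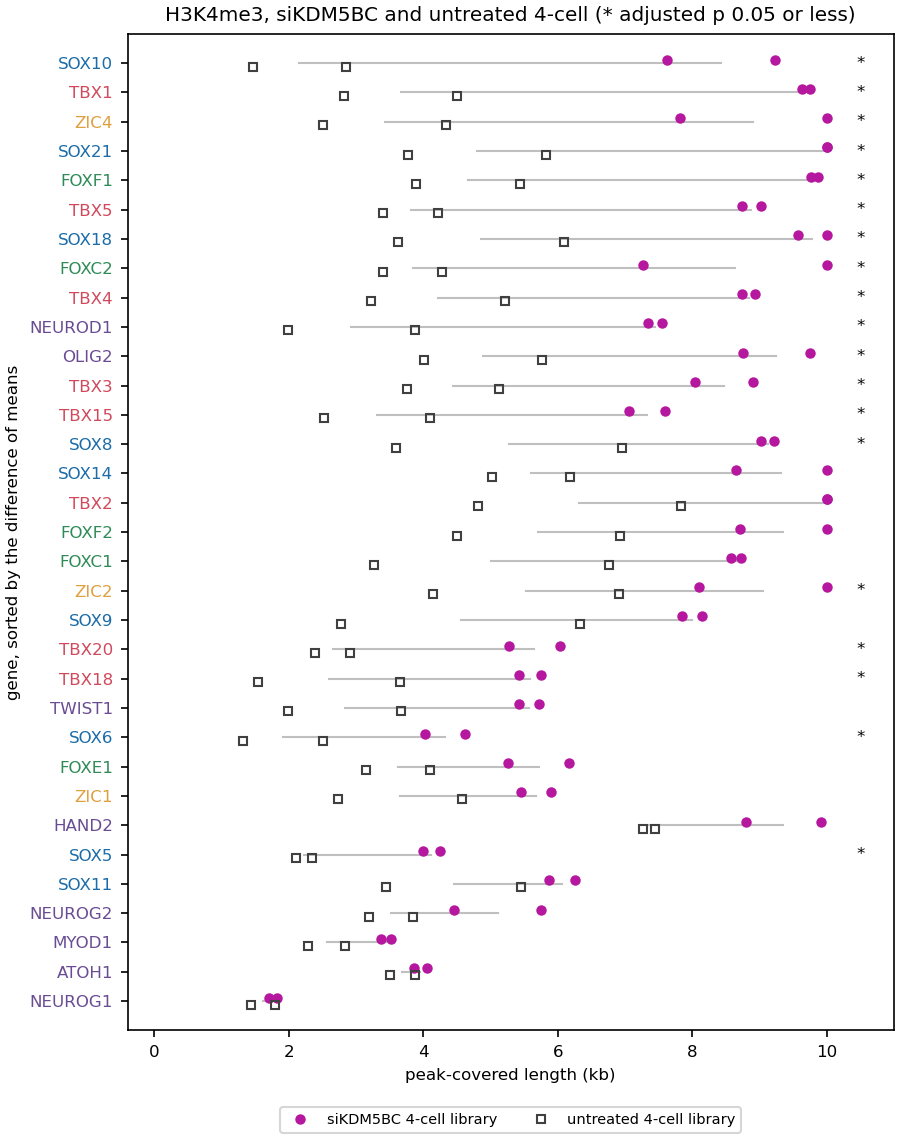
H3K4me3 peak-covered length in kb of each gene, in siKDM5BC 4-cell libraries (filled circles) and untreated 4-cell libraries (open squares), sorted by the difference of their means, which a grey line joins. An asterisk marks an adjusted p of 0.05 or less. All but NEUROG1 and ATOH1, at the bottom, have both siKDM5BC libraries above both untreated libraries.

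Overlap of the marks was counted where peaks of both marks shared at least 1 bp within a window in both libraries of each mark. In MII oocytes 23 of 33 members met this, against 10.3% of all coding genes. At the 2-cell, 4-cell and 8-cell stages 0 members did, where 0.0667%, 0.395% and 1.70% of all genes did. In morulae 7 did (SOX9, TBX2, TBX3, FOXC1, FOXC2, FOXF2 and OLIG2), against 4.44% of all genes. In blastocysts 26 did, against 17.9% of all genes. The marks were measured in separate embryos, so overlap does not show that they lie on the same chromosome copy or in the same cell.

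By family the overlap in blastocysts was found at 5 of 5 FOX, 7 of 8 TBX, 7 of 8 bHLH, 2 of 3 ZIC and 5 of 9 SOX genes. In MII oocytes it was found at 5 of 5 FOX, 7 of 9 SOX, 6 of 8 TBX, 2 of 3 ZIC and 3 of 8 bHLH genes. TBX2 shared 5246 bp in blastocysts and 5015 bp in MII oocytes, as the length common to all 4 libraries of a stage. Shared length was taken over both end windows of a gene, counting any stretch they share once. It is thus not on the scale of the covered lengths, which are from the fuller end alone. SOX21 shared 3519 bp in blastocysts and 1343 bp in MII oocytes, and SOX8 shared 1921 bp in blastocysts and 5356 bp in MII oocytes. NEUROG1 (1225 bp), NEUROG2 (369 bp), ATOH1 (479 bp) and TWIST1 (460 bp) shared length in blastocysts and none in MII oocytes. NEUROD1 had both marks in blastocysts without any length common to all 4 libraries, with 1314 and 586 bp of H3K4me3 and 4898 and 4255 bp of H3K27me3. With at least 1000 bp shared, the counts were 13 in blastocysts, 2 in morulae and 15 in MII oocytes, against 6.29%, 1.17% and 4.60% of all genes. Counting peaks with a −log10 q of at least 3, they were 9 in blastocysts, 1 in morulae and 0 in MII oocytes, against 2.77%, 0.441% and 0.0411% of all genes. Counting overlap in at least 1 library of each mark, they were 31 in blastocysts, 22 in morulae and 27 in MII oocytes, against 37.6%, 13.6% and 20.1% of all genes.

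The place of the marks was read at the 22 members under 10 kb long, beside all 6300 coding genes of that size. At the middle of the gene, H3K27me3 covered 50% of the members in MII oocytes, 0% at the 2-cell, 4-cell and 8-cell stages, 25% in morulae and 61.4% in blastocysts. Over all short genes these shares were 6.44%, 0.111%, 1.45%, 0.770%, 1.50% and 7.87% in the same order. At 20 kb from the middle the blastocyst share had dropped to 9.09% for members, the mean of both sides, and to 4.44% for all short genes. H3K4me3 covered the middle of 81.8% of the members in siKDM5BC 4-cell embryos and 56.8% in untreated 4-cell embryos, and of 31.3% and 15.2% of all short genes. At 20 kb it covered 19.3% of members in siKDM5BC and 2.27% in untreated 4-cell embryos, and 17.4% and 5.57% of all short genes, so the members were near all short genes there in siKDM5BC embryos and below them in untreated ones.

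**Figure D5:**
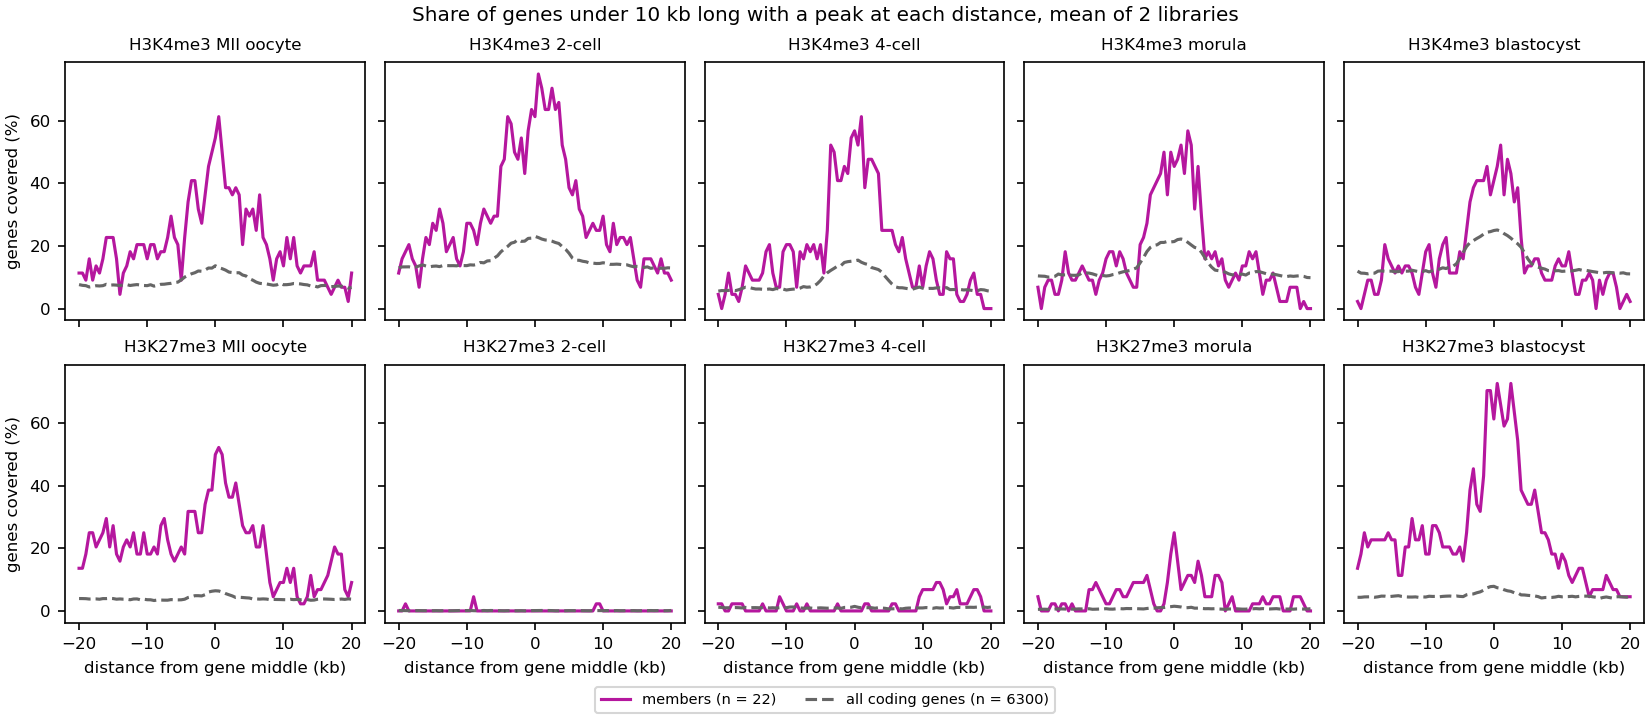
Share of genes under 10 kb long (%) that a peak covers at each distance from the gene middle (kb), for the 22 members (solid) and all 6300 short coding genes (dashed), as the mean of 2 libraries, with H3K4me3 above and H3K27me3 below. The members' H3K27me3 peaks around the gene middle in MII oocytes, morulae and blastocysts and is near 0 at the 2-cell and 4-cell stages.

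Other genes of the same families were described from a list of 100, of which 97 were matched. H3K27me3 fell in 2-cell embryos against MII oocytes at 29 of the 70 that were tested (41.4%), by limma with BH adjustment over all genes, of which 15.6% fell. By family 14 of 29 bHLH, 11 of 25 FOX, 3 of 9 SOX, 1 of 5 TBX and 0 of 2 ZIC genes fell. The families thus stood in another order than among the members. ASCL2, a placental bHLH factor, had 0 and 0 bp in 2-cell libraries, against 10001 and 10001 bp in MII libraries. FOXL1, a gut mesenchyme factor, had 302 and 0 bp in 2-cell libraries, against 10001 and 10001 bp in MII libraries. Both genes had a fully covered window in each MII library. In blastocysts against morulae 33 of 70 rose (47.1%), and 21.4% of all genes. FOXA2, an endoderm factor, had 9007 and 10001 bp in blastocyst libraries, against 1425 and 2240 bp in morula libraries, and NEUROD2 had 6558 and 6628 bp in blastocyst libraries, against no peak in morula libraries.

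In blastocysts against MII oocytes 15 of these 70 genes rose in H3K27me3 and 5 fell, shares of 21.4% and 7.14% near the 17.9% and 9.01% of all genes. BHLHE22, a neuronal bHLH gene, had 6021 and 8240 bp in blastocyst libraries, against 0 and 790 bp in MII libraries. It rose, with no overlap of libraries. SOX3, a neural progenitor factor, rose too, with 6469 and 5400 bp in blastocyst libraries, against 1498 and 710 bp in MII libraries. FOXO6 fell, with 2227 and 2074 bp in blastocyst libraries, against 8321 and 7308 bp in MII libraries. In H3K4me3, siKDM5BC embryos had rises at 55 of 96 tested genes (57.3%) and 0 falls, with rises at 34.4% of all genes. TBX10 had 8871 and 8992 bp in siKDM5BC libraries, against 1993 and 1699 bp in untreated 4-cell libraries, and BHLHE23 had 10001 and 10001 bp in siKDM5BC libraries, against 3393 and 2746 bp in untreated 4-cell libraries. In 4-cell against 2-cell embryos 12 of the 96 fell (12.5%) and 0 rose, where 9.29% of all genes fell. In blastocysts against MII oocytes 13 rose (13.5%) and 8 fell (8.33%), where 36% of all genes rose and 3.7% fell.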

How the data were processed

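Each of the 30 libraries has 1 deposited list of broad peaks. Per the submitters' processing notes, Bowtie2 2.4.1, MACS2 and the pig build susScr11 were used. Its version, the calling threshold, any input control and read filters are not given in the sources used here. Deposited columns are peak positions, the authors' fold enrichment ratio and the authors' −log10 p and −log10 q. Peaks were called per library. Lists without read totals leave depth unknown, so weak peaks may be missed in shallow libraries. Fold and q served only to filter peaks.

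Gene ends came from RefSeq's Sscrofa11.1 table, which has no strand, so both ends were treated alike. The members and lists were chosen with earlier results of these data known. Per library, covered bp within 5 kb of each end was computed with Python 3.11.15 and pandas 2.3.3, and the larger end was kept. Genes with a peak in at least 2 libraries of a mark were fitted on linear bp with limma 3.58.1 (R 4.3.3, trend and robust), with all libraries of the mark, no covariate, two-sided contrasts and BH adjustment over all genes tested (18228 for H3K4me3, 10518 for H3K27me3). Groups whose libraries were all at 0 or all at the full window gave no residual degrees of freedom. That rule was added after simulated data showed too many false calls without it, and the fit without it is an alternative. In all, 15 comparisons were made, 7 of them with alternatives. An exact permutation test of 2 libraries against 2 cannot go below 0.333. Same-numbered replicates did not deviate together in every comparison, with correlations from −0.156 to 0.252, so no block was used. Values are given in every library for the 4 called members with the largest difference in each main comparison, called members of the opposite direction, and the extremes of each family. Other members may be named, and genes of the families outside the 33 are named when called, at most 4 per direction by size.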

Additional observations from a re-analysis of the deposited data

How the results depend on the processing

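The 7 main comparisons were repeated under other settings, with 2 settings (fold 4 and spread from all groups) chosen after seeing the data. Percentages in brackets are the shares of all genes tested that were called the same way. With peaks of −log10 q 3 or more, H3K27me3 calls became 0 in 2-cell against MII and in blastocyst against morula and MII (0% each). H3K4me3 calls became 0 lower in 4-cell against 2-cell (0%), and 22 higher (69.4%) and 0 lower (0%) in blastocyst against MII. Both marks were then found at 0 members in MII and 9 in blastocysts, against 0.0411% and 2.77% of all coding genes. With 1000 bp shared the counts were 15 and 13, against 4.60% and 6.29%. With fold 3.5 or more, 13 rose in H3K27me3 in blastocyst against morula (9.86%). In H3K4me3, 0 fell in 4-cell against 2-cell (0.00585%) and 9 rose in siKDM5BC (15.8%). In blastocyst against MII 9 rose (48.9%) and 0 fell (0.544%) in H3K4me3. With fold 4 or more, H3K27me3 calls were 4 lower in 2-cell against MII (10.1%) and 4 higher in blastocyst against morula (4.43%). In blastocyst against MII 6 were higher (12%) and 1 lower (10.1%). In H3K4me3, 4 rose (0.932%) and 0 fell (0%) in 4-cell against 2-cell, and 21 rose (69.4%) and 0 fell (0%) in blastocyst against MII. Scaled to equal mean coverage, 0 members were called in the H3K27me3 comparisons (0%). In H3K4me3, 3 rose (2.4%) and 0 fell (2.84%) in 4-cell against 2-cell. In blastocyst against MII 0 rose (16.6%) and 17 fell (14.2%), and in siKDM5BC 0 rose (1.9%) and 1 fell (1.2%). With windows of 2.5 kb, 2 fell in H3K27me3 in blastocyst against MII (8.47%) and 9 rose in H3K4me3 in siKDM5BC (23.6%). In H3K4me3, 1 fell in 4-cell against 2-cell (2.48%) and 1 in blastocyst against MII (2.82%). On the log2 scale 2 fell in H3K27me3 in blastocyst against MII (7.52%) and 12 rose in siKDM5BC (26.1%). With the spread taken from all groups 8 fell in H3K27me3 in blastocyst against MII (15.8%). With replicate number as a block 2 fell there (7.41%), and no other count moved by more than 1.5 times. The cause of these changes was not tested.

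Without 1 library at a time, 17 members fell in H3K27me3 in 2-cell against MII, 20 to 25 rose in blastocyst against morula, and 12 to 13 rose and 2 to 4 fell in blastocyst against MII. In H3K4me3, 0 to 1 fell in 4-cell against 2-cell, 1 rose and 1 to 4 fell in blastocyst against MII, and 5 to 21 rose in siKDM5BC. A library left alone in its group was assumed to vary like the others.

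Directions turned as follows. In H3K4me3 in 4-cell against 2-cell, SOX10, ZIC4 and OLIG2 lay higher in 4-cell libraries by 1594, 2473 and 3372.5 bp with −log10 q 3, by 1594, 2473 and 4888.5 bp with fold 4, and SOX10 and ZIC4 by 1056 and 1242 bp with fold 3.5. In blastocyst against MII, SOX8, SOX10, TBX4 and MYOD1 lay higher in blastocysts by 2580, 703, 1839.5 and 1287.5 bp with −log10 q 3, and by 2128.5, 703, 1248 and 1287.5 bp with fold 4. With fold 3.5, TBX4 and MYOD1 lay higher by 766 and 71 bp. In H3K27me3 in blastocyst against morula, TBX4 differed by −312.5 bp with −log10 q 3, and TBX5 and SOX9 by −798.96 and −427.09 bp when scaled. SOX21 differed by −469.22 bp in siKDM5BC when scaled. The alternative that takes only the start of a gene was not run, because the annotation used here gives no strand.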

Other observations

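Within 50 kb of the fuller gene end, the longest H3K27me3 of any member was at FOXC1, with 74432 and 83271 bp in blastocyst libraries, against 54393 and 42297 bp in MII oocyte libraries. Its widest peak measured 33006 and 31886 bp in blastocyst libraries, against 4148 and 2913 bp in MII libraries. SOX21 had 39124 and 37616 bp within 50 kb in blastocyst libraries, against 5416 and 3828 bp in MII libraries. NEUROG1, which had no MII peak within 5 kb, had 24939 and 26266 bp within 50 kb in blastocyst libraries, against 820 and 0 bp in MII libraries. In the other direction SOX10 had 1375 and 2695 bp in blastocyst libraries, against 25136 and 20019 bp in MII libraries, and SOX8 had 10004 and 9583 bp in blastocyst libraries, against 36913 and 29423 bp in MII libraries. At this width no test was run, and the share of all genes that differed as much was not counted. In 4-cell libraries TBX1 had 8684 and 12543 bp of H3K27me3 within 50 kb, and 0 and 0 bp within 5 kb.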
